A study of Rattus norvegicus with 26 samples.

Results

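The levels of 2 differentiated clones of rat multipotent adult progenitor cells (rMAPCs) were compared on d6, the 3 d6 arrays of clone Cl-19 (called Cl19 here) minus the 3 d6 arrays of clone 3c3, which are 6 of the 26 arrays of the series. rMAPCs are cells grown from bone marrow that express Oct4 (Pou5f1). Both clones came from female Fischer rats, Cl19 from an animal of 3 weeks and 3c3 from an embryo of E18, and on d6 both had spent 6 days in basal rMAPC medium with TGFβ1 and PDGF-BB and without serum, at low oxygen. The d0 arrays hold the same clones before differentiation (3 a clone), and 2 arrays of commercial rat aortic smooth muscle cell RNA served the study as a positive control, called primary SMC here. Each clone is 1 line, the labels do not say that the 3 replicates were separate differentiations, and clone, donor age, slide and scan day coincide, so their parts in any difference cannot be told apart. The p-values measure the spread between arrays within the 9 groups of the series, pooled over the 26 arrays.

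Smooth muscle cells wrap vessels and contract through actin, myosin and the proteins that anchor and regulate them. TGFβ1, given here together with PDGF-BB, drives progenitors toward that program through SMAD proteins. PDGF-BB signals through receptor tyrosine kinases, and the study's introduction ties it to the proliferation and migration of smooth muscle cells. The transcription factor SRF with its partners of the myocardin family switches on the contractile genes. Undifferentiated rMAPCs of this kind also carry transcription factors of the primitive endoderm, the embryonic layer that lines the yolk sac. The comparison asks how alike the cells of both clones are at the end of the same protocol.

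All values are log2 intensities after quantile normalization over the 26 arrays, so that a difference of 1 is a 2-fold difference, and a probe counts as above background where the scanner software marked it so. On the d6 arrays, 43.2% to 61.4% of features were above background. The array of 3c3 replicate 3 had the lowest share and the highest signal of its negative controls, 34.96 against 11.5 to 13.5 intensity units on the other 5, and results that rest on it are given with and without it. Within a clone the d6 arrays correlated at r = 0.97 to 0.98 over the tested probes, and between the clones at r = 0.92 to 0.95. 3c3 replicate 1 lay closest to the Cl19 arrays, and without it the number of large differences below was 2237 in place of 1979. The 10 spike-in transcripts, added in equal amounts to each sample, differed between the clones on d6 by -0.31 to 0.13. The label of Oct4-expressing cells was borne out on d0, where Pou5f1 lay at 10.28 in Cl19 and 11.53 in 3c3, above background on all arrays. Of the genes of the Y chromosome looked up for the label of female donors, Uty alone was analysed here, and its probe was above background on all 6 d6 arrays (7.61 in Cl19 and 8.82 in 3c3 on average) and on both primary SMC arrays (7.07), so that it does not bear out the label.

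Of 24442 probes tested, 7112 (29.1%) differed between the clones on d6, 3554 higher in Cl19 and 3558 higher in 3c3. A difference is called large here where it passed the test, reached 2 log2 units (4-fold) and the probe was above background on all 3 arrays of at least 1 clone. 1193 probes (4.88% of those tested) were large and higher in Cl19, and 786 (3.22%) were large and higher in 3c3. The plot of d6 levels shows both sets. Of the 1979 large differences, 984 were measured above background in both clones, 412 of them higher in Cl19 and 572 higher in 3c3. The larger number toward Cl19 was thus not seen among these. With dim values raised to the lowest signal above background, 796 were large and higher in Cl19 and 771 higher in 3c3. Among the 1193 higher in Cl19, 320 were above background in no 3c3 array. Among the 786 higher in 3c3, 73 were above background in no Cl19 array. Without the slide of 3c3 replicate 3 (4 arrays), 1797 differences were large, and after a normexp background correction with an offset of 50, which raises low signals, 526 were. On d0, 751 probes (3.07%) differed between the same clones, and the clone difference itself was not the same on d6 as on d0 for 4263 probes (17.4%).

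**Figure D1:**
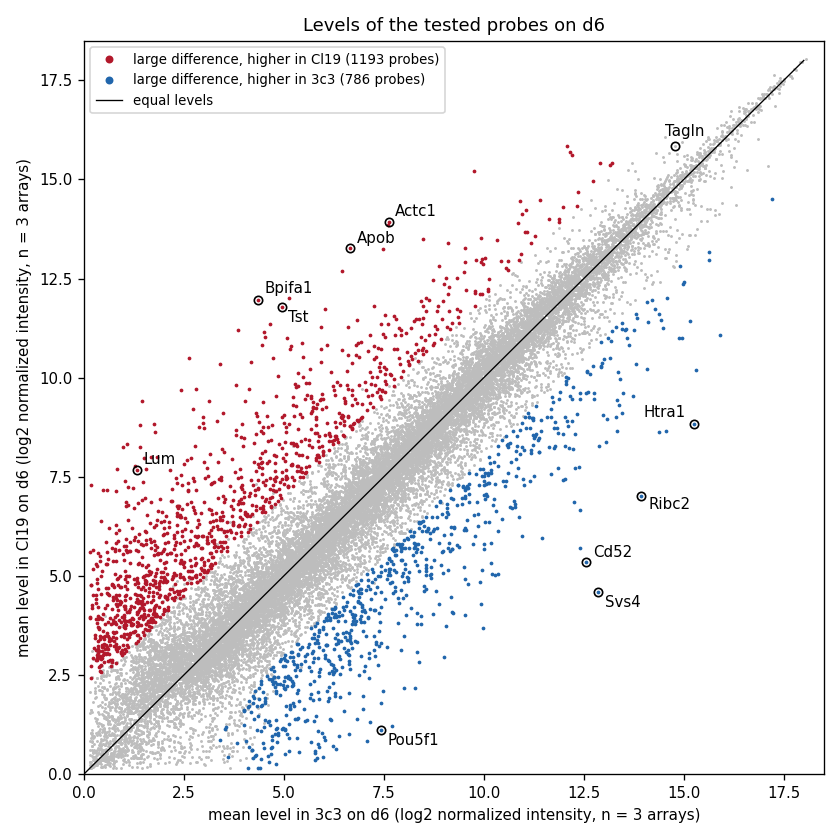
Mean level of each of the 24442 tested probes in 3c3 (horizontal axis) and in Cl19 (vertical axis) on d6, in log2 normalized intensity, with 3 arrays a clone. The 1193 probes with a large difference that were higher in Cl19 lie above the line of equal levels and the 786 higher in 3c3 below it, and circles mark genes described in the text.

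Most of the large differences did not pass the test between the clones on d0. Among probes higher in Cl19 on d6 the median clone difference on d0 was 0.02, and 61 of 1193 (5.11%) already differed in the same direction there. For probes higher in 3c3 the median on d0 was 0.04, and 27 of 786 (3.44%) already differed in the same direction. Over all 24442 probes tested, 488 were higher in Cl19 on d0 and 263 higher in 3c3, together 3.07%. A d0 difference that did not pass is not shown to be absent. Set against its own d0 level, Cl19 had moved away by at least 2 log2 units while 3c3 stayed within 1 log2 unit for 465 probes higher in Cl19 (39.0%) and for 220 probes higher in 3c3 (28.0%). The reverse, with 3c3 away and Cl19 near d0, held for 38 (3.19%) and 102 (13.0%). Both clones lay at least 1 log2 unit above d0 for 436 of the probes higher in Cl19 (36.5%), and both lay at least 1 log2 unit below it for 141 of the probes higher in 3c3 (17.9%). These shares use the fitted levels of dim probes too and are a description with no test. The plot of changes from d0 shows each probe. Of the 1193 probes higher in Cl19, the primary SMC level was nearer to that of Cl19 for 477 (40.0%). Of the 786 higher in 3c3, it was nearer to that of Cl19 for 550 (70.0%). In both sets it was thus more often nearer to the clone with the lower level. The probes were chosen for a higher level in 1 clone, so these counts do not tell which clone is more like primary SMC. The primary SMC arrays were also scanned on a day of their own.

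**Figure D2:**
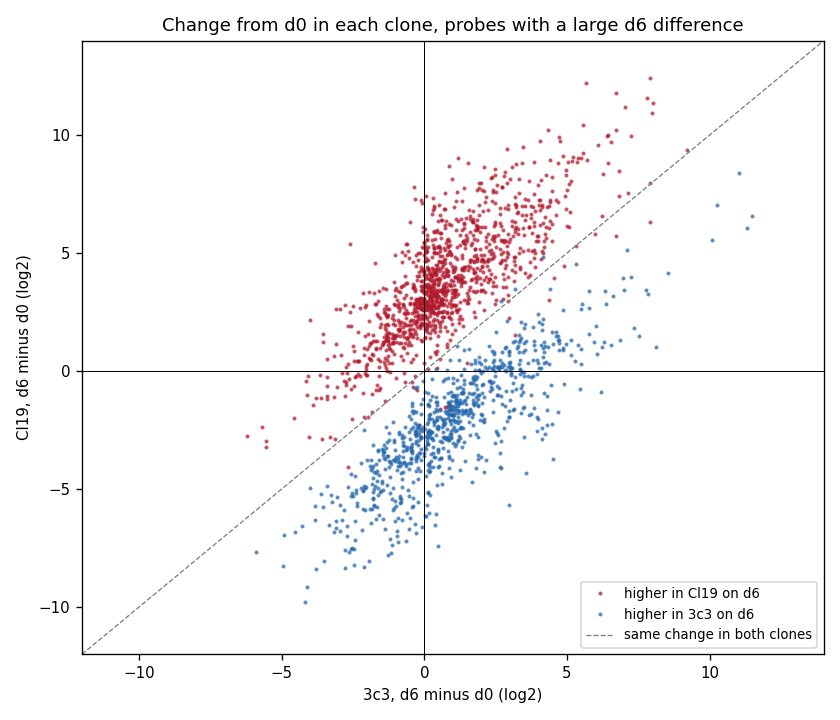
Change from d0 to d6 in 3c3 (horizontal axis) and in Cl19 (vertical axis), both in log2 units, of the 1979 probes with a large d6 difference. Probes higher in Cl19 spread upward from no change in 3c3 and along the dashed line of equal change, and probes higher in 3c3 lie to the right of it and below.

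Among genes above background on all 6 d6 arrays, the largest differences toward Cl19 were those of Bpifa1, Mrap2 and Tst. Bpifa1, a secreted protein of airway epithelium (probe at chr3:144535522-144535581, rat assembly rn4), lay at 12.25, 11.88 and 11.78 in Cl19 and 5.12, 3.14 and 4.78 in 3c3. The clones did not overlap, and the difference was 7.62 ± 0.71 (SE), a 197-fold higher level in Cl19 (adjusted p = 1.68e-07). Mrap2, an accessory protein of melanocortin receptors, lay at 12.31, 11.42 and 12.33 in Cl19 and 5.89, 3.76 and 5.77 in 3c3 (6.88 ± 0.88, adjusted p = 7.17e-06). Tst, a mitochondrial sulfurtransferase, lay at 12.17, 11.63 and 11.56 in Cl19 and 5.13, 4.26 and 5.46 in 3c3 (6.84 ± 0.59, adjusted p = 5.75e-08). For all 3 the d0 levels of the clones were alike, between 3.22 and 4.23. The primary SMC level was 10.47 for Tst, 4.77 for Bpifa1 and 6.22 for Mrap2.

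Several of the next genes build or modify the space around cells. Has2, which makes hyaluronan, lay at 10.83, 11.21 and 11.02 in Cl19 and 4.65, 4.04 and 4.91 in 3c3 (6.49 ± 0.55, adjusted p = 5.09e-08), and on d0 it was above background in neither clone. Loxl1, which crosslinks elastin, lay at 10.36, 12.28 and 10.82 in Cl19 and 5.12, 4.07 and 4.33 in 3c3 (6.65 ± 0.81, adjusted p = 3.78e-06), below the primary SMC level of 15.62. Olfm1, a secreted glycoprotein, lay at 12.74, 12.76 and 12.59 in Cl19 and 7.10, 5.75 and 6.50 in 3c3 (6.25 ± 0.92, adjusted p = 3.27e-05). Every Cl19 array was above every 3c3 array for all 3, as the choice of leading genes required. Apob, the apolipoprotein of lipoprotein particles, was above background in neither clone on d0 and reached 12.76, 12.96 and 14.11 in Cl19 and 7.34, 5.85 and 6.78 in 3c3 (6.62 ± 0.90, adjusted p = 1.38e-05). S100a16, a calcium-binding protein, lay at 11.06, 12.14 and 10.85 in Cl19 and 4.59, 4.62 and 4.74 in 3c3 (6.70 ± 0.67, adjusted p = 4.23e-07). It already differed on d0, with 8.67 in Cl19 and 4.91 in 3c3 (adjusted p = 0.00272). Hpd, an enzyme of tyrosine breakdown, lay at 10.77, 10.74 and 9.66 in Cl19 and 4.86, 3.37 and 4.34 in 3c3 (6.20 ± 0.88, adjusted p = 2.15e-05). Actc1, the actin of heart muscle, lay at 14.23, 14.16 and 13.36 in Cl19 and 9.75, 5.61 and 7.50 in 3c3 (6.30 ± 1.24, adjusted p = 0.0006). Its 3c3 arrays were spread over more than 4 log2 units, with replicate 1 highest.

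The largest differences toward 3c3 were those of genes that both clones expressed on d0 and that were low in Cl19 by d6. Svs4, a secretory protein of the seminal vesicle (probe at chr3:155213031-155213090, rn4), lay at 11.67, 13.73 and 13.17 in 3c3 and 3.75, 5.75 and 4.32 in Cl19. The clones did not overlap, and the difference was -8.25 ± 0.73, a 305-fold higher level in 3c3 (adjusted p = 8e-08). Both clones had a mean of 8.3 on d0 (8.32 and 8.35), above the Cl19 level and below the 3c3 level on d6. Cd52, a small membrane glycoprotein of leukocytes, lay at 12.90, 12.21 and 12.58 in 3c3 and 4.66, 4.89 and 6.50 in Cl19 (-7.21 ± 0.49, adjusted p = 3.31e-09), and its d0 levels of 12.56 and 13.21 were close to that of 3c3 on d6. Ribc2, a protein of ciliary microtubules, lay at 13.97, 14.04 and 13.82 in 3c3 and 5.80, 8.06 and 7.19 in Cl19 (-6.93 ± 0.67, adjusted p = 2.57e-07), and Prg2, the major basic protein of eosinophils, at 12.02, 12.70 and 12.51 in 3c3 and 4.91, 6.16 and 6.01 in Cl19 (-6.72 ± 0.56, adjusted p = 4.47e-08). For both, the clones were far apart on d6 and within 1 log2 unit of each other on d0.

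Secreted and matrix proteins were also among them. Htra1, a secreted serine protease, lay at 14.93, 15.20 and 15.62 in 3c3 and 8.17, 8.88 and 9.47 in Cl19 (-6.41 ± 0.36, adjusted p = 4.96e-10), and Mfap5, a protein of elastic microfibrils, at 14.45, 14.75 and 14.47 in 3c3 and 8.10, 9.21 and 8.70 in Cl19 (-5.89 ± 0.35, adjusted p = 6.06e-10). The primary SMC levels of 13.56 for Htra1 and 13.41 for Mfap5 were nearer to 3c3 than to Cl19. Lama1, the laminin chain of embryonic basement membranes, lay at 13.81, 14.53 and 14.78 in 3c3 and 7.80, 8.50 and 9.59 in Cl19 (-5.74 ± 0.52, adjusted p = 1.17e-07) and was not above background in primary SMCs. Hamp, the iron hormone hepcidin, lay at 11.90, 12.92 and 12.37 in 3c3 and 6.41, 6.59 and 6.98 in Cl19 (-5.73 ± 0.37, adjusted p = 2.28e-09). Nmnat3, an enzyme of NAD synthesis in mitochondria, lay at 10.00, 9.92 and 10.02 in 3c3 and 3.42, 4.32 and 3.34 in Cl19 (-6.29 ± 0.47, adjusted p = 1.28e-08), and Upk3a, a uroplakin of bladder lining, at 11.17, 9.38 and 9.28 in 3c3 and 4.23, 4.24 and 4.41 in Cl19 (-5.65 ± 0.67, adjusted p = 3.2e-06). The Nmnat3 levels of the 3c3 arrays were nearly equal, while 3c3 replicate 1 stood above the other two for Upk3a. The plot of leading genes gives all 20 with their d0 and primary SMC levels.

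**Figure D3:**
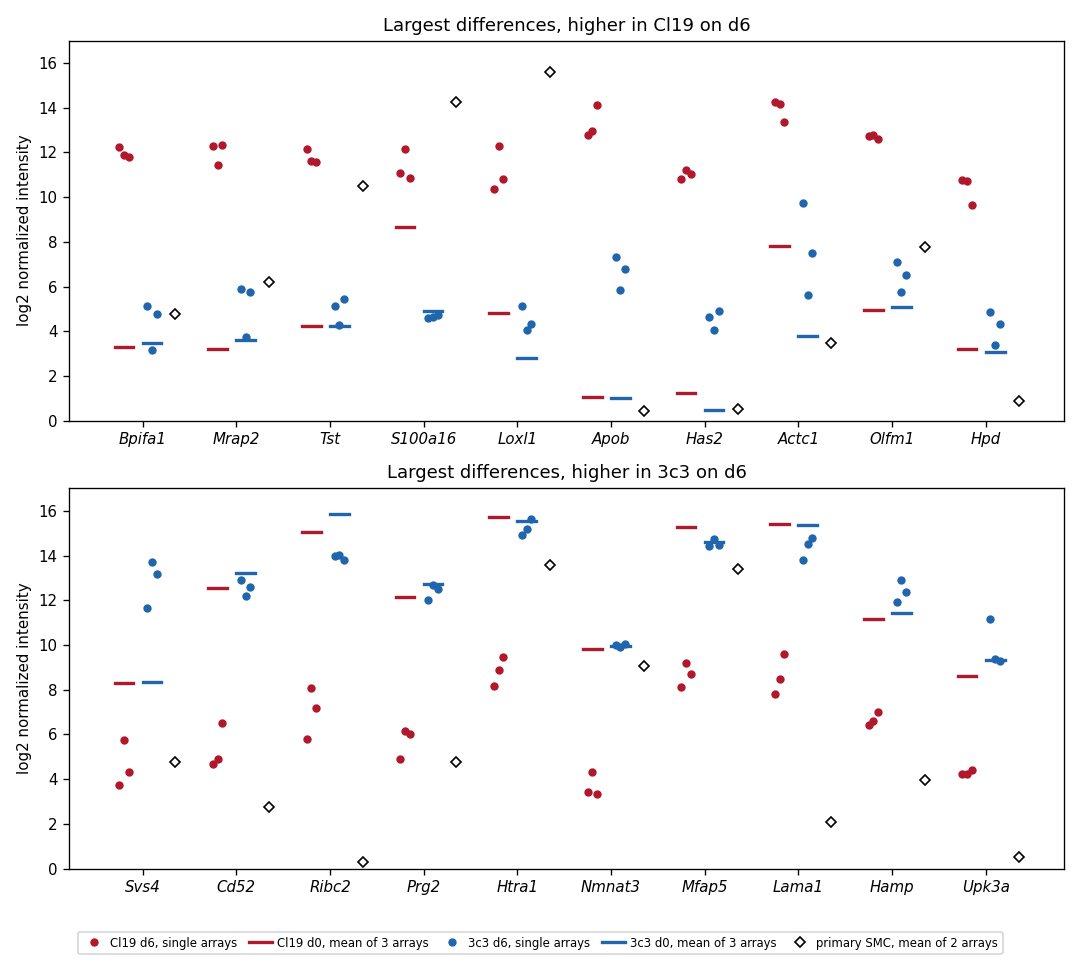
Log2 normalized intensity of the 10 genes with the largest difference in each direction among probes above background on all 6 d6 arrays, with single d6 arrays as points, the mean of 3 d0 arrays as bars and the mean of 2 primary SMC arrays as diamonds (Cl19 red, 3c3 blue). Genes with overlapping clones on d6 were left out by the choice, and most bars of the clones lie at similar heights on d0.

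Some genes were above background on all 3 d6 arrays of one clone and on none of the other, and for these only a lower bound of the difference can be given. It sets the bright clone's mean against, for each array of the dim clone, the lowest signal above background or the probe's own value, whichever is higher. In Cl19 alone were Igfbp5, which binds insulin-like growth factors, with 7.79, 8.72 and 8.23 in Cl19 against fitted values of 0.20 to 2.18 in 3c3, at least 42.8-fold higher (adjusted p = 6.74e-06). Lum, the small matrix proteoglycan lumican, lay at 7.53, 7.62 and 7.86 and was at least 28.6-fold higher (adjusted p = 1.31e-08), with a primary SMC level of 10.38. Casr, the calcium-sensing receptor, was at least 23.1-fold higher (adjusted p = 3.09e-05), Ankrd22 at least 22.3-fold (adjusted p = 3.8e-10) and Eps8l1, a regulator of actin, at least 20.4-fold (adjusted p = 5.35e-09). A further Apob probe of this kind was at least 24.9-fold higher (adjusted p = 1.11e-05). None of these 6 probes was above background on any d0 array of either clone.

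In 3c3 alone the largest bound was that of Mep1b, a membrane metalloprotease, with 7.15, 6.74 and 7.32 and an at least 35.2-fold higher level (adjusted p = 4.05e-08). Zyg11a was at least 21.8-fold higher (adjusted p = 6.92e-08), Mogat3, an acyltransferase of fat synthesis, at least 17.8-fold (adjusted p = 3.69e-07) and Rnf125, a ubiquitin ligase, at least 16.7-fold (adjusted p = 1.97e-07). These 3 genes were above background on all d0 arrays of both clones. Cav1, the coat protein of caveolae, differed from them in that 3c3 was low on d0 (1.70) and lay at 6.32, 5.56 and 6.11 on d6, while Cl19 was at 1.11, 1.12 and 0.59, an at least 16.8-fold difference (adjusted p = 2.92e-08). Both further Cav1 probes tested were also higher in 3c3, and the primary SMC level was 9.65. A second Nmnat3 probe had a bound of 19.5-fold toward 3c3 (adjusted p = 4.48e-07).

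Most genes of the interferon response and of antigen presentation were lower in Cl19. Such genes are switched on by the STAT and IRF transcription factors and make antiviral proteins, the proteasome subunits that cut peptides, and the transporter that loads them onto MHC class I. Of 23 listed genes 18 were tested, and 13 were lower in Cl19 and 2 higher, against 17.5% lower and 17.8% higher among the 11699 genes tested with 1 probe a gene. The median difference was -1.80, beside 0.02 over all genes, and 12 to 13 genes were lower with any of the 6 arrays left out. Psmb8, an immunoproteasome subunit, lay at 4.63, 4.50 and 4.70 in Cl19 and 8.79, 8.06 and 8.67 in 3c3 (-3.90 ± 0.33, adjusted p = 4.47e-08). Tap2, a subunit of the peptide transporter, lay at 7.84, 7.18 and 7.56 in Cl19 and 11.08, 11.48 and 11.19 in 3c3 (-3.72 ± 0.32, adjusted p = 5.51e-08). Rsad2, the antiviral enzyme viperin, lay at 5.05, 5.65 and 6.19 in Cl19 and 9.43, 8.40 and 9.66 in 3c3 (-3.53 ± 0.48, adjusted p = 1.43e-05). In each the highest Cl19 array was at least 2 log2 units below the lowest 3c3 array. Cd74, the chaperone of MHC class II, was above background in no Cl19 array and at 5.96, 4.57 and 5.46 in 3c3, at least 10.5-fold higher (adjusted p = 6.88e-06).

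Also lower in Cl19 were Isg15, a ubiquitin-like antiviral protein (-3.21 ± 0.37, adjusted p = 2.31e-06), B2m, the light chain of MHC class I (-2.64 ± 0.15, adjusted p = 5.3e-10), and Psmb9, another immunoproteasome subunit (-2.62 ± 0.41, adjusted p = 6.05e-05). Irf7, a transcription factor of the response, differed by -2.10 ± 0.27 (adjusted p = 6.76e-06). Oas1a, Stat2, Tapbp and Tap1 differed by -1.70, -1.40, -1.29 and -1.19. Gbp2, a GTPase of the response, and Mx2, an antiviral GTPase, were higher in Cl19, by 2.94 ± 0.31 (adjusted p = 8.7e-07) and 3.10 ± 0.76 (adjusted p = 0.00368). Irf1, Irf9 and Ifit2 did not pass, with -0.12, -0.14 and -0.20. On d0 the order was the other way for some of them: Psmb8 lay at 8.08 in Cl19 and 5.85 in 3c3 (adjusted p = 0.000484), and Rsad2 at 6.20 and 4.25 (adjusted p = 0.0291). The primary SMC level was above that of 3c3 for B2m (14.87) and below that of Cl19 for Rsad2 (0.21) and Isg15 (8.44).

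Several members of this list, lower or higher in Cl19, shared letters upstream of their start. The interferon-stimulated response element (ISRE) was searched as GAAANNGAAA or, on the other strand, TTTCNNTTTC in the 250 bases before the start of each gene of RefSeq (build GRCr8). It was found for 8 of the 14 tested members with a promoter given, and for 3.61% of all 27457 genes. Those 8 were 7 of the 11 lower in Cl19 and the 1 higher, Gbp2. The list was chosen as interferon response genes, so its share beside that of all genes does not bear on the difference between the clones. The match is a description and no measured binding. Shown 5′ to 3′ with the match in capitals, as examples of a class I light chain, a transporter subunit, an antiviral enzyme and a transcription factor, are B2m (chr3:129549080-129549329, plus strand), Tap1 (chr20:4668544-4668793, minus strand), Rsad2 (chr6:48788121-48788370, minus strand) and Irf7 (chr1:205800024-205800273, minus strand).
B2m: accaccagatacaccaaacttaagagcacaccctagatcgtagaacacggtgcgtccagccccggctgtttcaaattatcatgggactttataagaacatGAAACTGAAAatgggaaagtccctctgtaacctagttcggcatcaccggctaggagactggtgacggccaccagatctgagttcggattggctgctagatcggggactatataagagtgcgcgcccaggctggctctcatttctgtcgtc
Tap1: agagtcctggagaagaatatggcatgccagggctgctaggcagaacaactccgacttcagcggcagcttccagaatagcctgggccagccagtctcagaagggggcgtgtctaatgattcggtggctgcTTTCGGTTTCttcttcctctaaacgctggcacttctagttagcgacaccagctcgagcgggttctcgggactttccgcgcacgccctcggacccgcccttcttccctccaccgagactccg
Rsad2: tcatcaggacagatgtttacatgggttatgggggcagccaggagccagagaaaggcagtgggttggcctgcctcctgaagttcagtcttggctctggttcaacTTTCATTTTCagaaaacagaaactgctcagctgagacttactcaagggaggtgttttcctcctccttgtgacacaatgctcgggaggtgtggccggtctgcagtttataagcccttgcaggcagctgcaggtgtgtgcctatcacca
Irf7: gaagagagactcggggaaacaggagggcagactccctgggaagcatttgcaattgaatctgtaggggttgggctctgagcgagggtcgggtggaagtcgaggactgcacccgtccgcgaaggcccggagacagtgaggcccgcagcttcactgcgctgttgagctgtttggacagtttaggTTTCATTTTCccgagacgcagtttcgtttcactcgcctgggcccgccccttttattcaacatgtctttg

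Most smooth muscle contractile genes were expressed by both clones on d6, and more of those that differed were higher in Cl19. All 20 analysed members were tested, of which 8 were higher in Cl19, 1 was lower and 11 did not pass, with a median difference of 0.55. The share that differed was 45.0%, beside 35.3% of all genes. The count of higher genes was 3 with the 6 d6 arrays alone in the fit, 4 without 3c3 replicate 2, 4 without the slide of 3c3 replicate 3, and 5 without 3c3 replicate 3, Cl19 replicate 1 or Cl19 replicate 2. Tagln, the actin-binding protein SM22α, lay at 15.93, 15.98 and 15.64 in Cl19 and 15.24, 14.59 and 14.50 in 3c3 (1.07 ± 0.33, adjusted p = 0.0191), near the primary SMC level of 16.27, and no longer passed without 3c3 replicate 2, 3c3 replicate 3, Cl19 replicate 1 or Cl19 replicate 2 (adjusted p = 0.0561 to 0.0808). Smtn, a protein of contractile stress fibres, lay at 12.42, 12.49 and 12.77 in Cl19 and 12.03, 11.88 and 11.77 in 3c3 (0.66 ± 0.24, adjusted p = 0.0405) and did not pass without 3c3 replicate 2, 3c3 replicate 3, Cl19 replicate 1, Cl19 replicate 2 or Cl19 replicate 3 (adjusted p = 0.0544 to 0.14). For both, each Cl19 array was above each 3c3 array, by 0.4 at the closest. Cnn1, the calponin that marks contractile cells, overlapped between the clones at 11.55, 11.14 and 11.48 in Cl19 and 11.40, 10.88 and 11.07 in 3c3 (0.27 ± 0.19, adjusted p = 0.322), and its primary SMC level was 11.80.

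Myl9, the regulatory myosin light chain, was higher in Cl19 by 1.70 ± 0.39 (adjusted p = 0.00241), and Flna, Cald1, Pdlim7 and Ppp1r14a, which crosslink, cover or regulate actin and myosin, by 0.64, 0.67, 0.61 and 0.76. The 2 members with a large difference went opposite ways. Synm, the intermediate filament protein synemin, lay at 7.96, 8.40 and 6.95 in Cl19 and 2.47, 1.03 and 0.31 in 3c3, above background on 1 of 3 arrays of 3c3 (6.49 ± 0.59, adjusted p = 1.23e-07). Actg2, the gamma actin of visceral smooth muscle, was higher in 3c3, at 7.03, 6.70 and 6.69 in 3c3 and 4.53, 5.53 and 4.22 in Cl19 (-2.05 ± 0.33, adjusted p = 8.5e-05), and both clones were far below the primary SMC level of 12.00. Kcnmb1 and Itga8, markers of mature smooth muscle, were above background in neither clone, while they lay at 7.14 and 6.92 in primary SMCs. The plot of interferon and contractile genes gives every array.

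**Figure D4:**
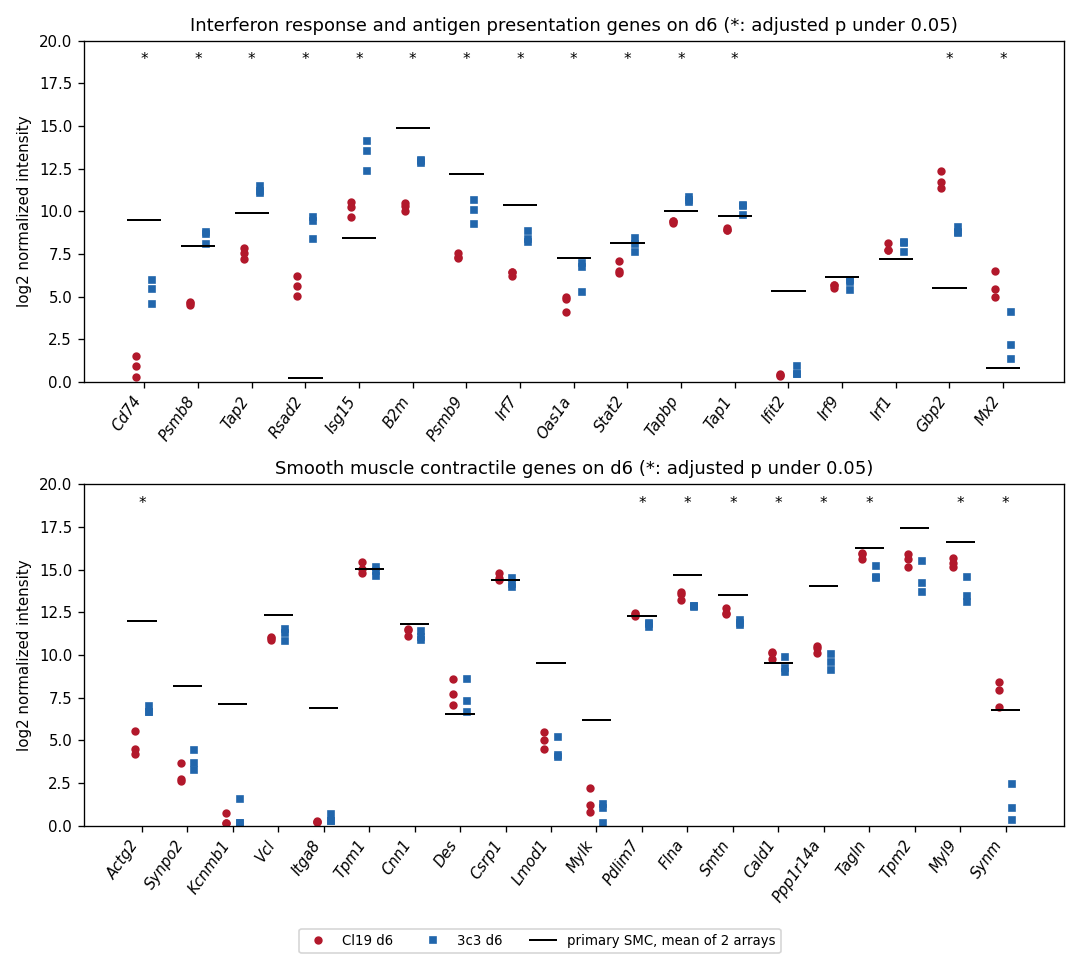
Log2 normalized intensity of tested interferon and antigen presentation genes (upper panel) and smooth muscle contractile genes (lower panel) on each d6 array, Cl19 as red circles and 3c3 as blue squares, with the mean of 2 primary SMC arrays as a bar and stars at genes that passed the test. From Cd74 to Tap1 the Cl19 arrays lie below the 3c3 arrays, and in the lower panel most genes lie at similar heights in both clones, with Synm and Actg2 as the large exceptions.

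The factors that act on those genes did not differ past the test. Smarcd3 (Baf60c), the chromatin remodelling subunit that the study is about, lay at 12.26, 11.49 and 12.19 in Cl19 and 12.38, 11.28 and 11.63 in 3c3 (0.21 ± 0.48, adjusted p = 0.805), with d0 levels of 5.85 and 6.49. Srf lay at 14.34, 13.54 and 13.91 in Cl19 and 13.87, 13.59 and 13.50 in 3c3 (0.27 ± 0.17, adjusted p = 0.276), and passed without Cl19 replicate 2, with a difference of 0.47 (adjusted p = 0.049). Mrtfa, a partner of SRF, lay at 13.54, 13.58 and 13.30 in Cl19 and 13.61, 13.91 and 13.45 in 3c3 (-0.18 ± 0.13, adjusted p = 0.351). In all 3 the arrays of the clones overlapped. Myocd, the myocardin gene, was above background on 1 of 3 arrays of Cl19 and on none of 3c3, so its difference has no size, and it lay at 7.04 in primary SMCs. Among factors of mesendoderm and mesoderm that the study names, Lhx1, Eomes and Sox4 were higher in Cl19. Lhx1, a factor of the early mesoderm, lay at 11.58, 10.87 and 12.62 in Cl19 and 9.29, 7.85 and 8.54 in 3c3 (3.13 ± 0.76, adjusted p = 0.00346), and it differed already on d0, at 5.98 and 1.83 (adjusted p = 0.0031).

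Eomes, a T-box factor of mesendoderm, lay at 8.98, 7.94 and 9.25 in Cl19 and 7.72, 5.61 and 6.79 in 3c3 (2.02 ± 0.61, adjusted p = 0.0159), and the difference did not pass without 3c3 replicate 2, Cl19 replicate 1 or Cl19 replicate 3 (adjusted p = 0.0549 to 0.107). Sox4 lay at 14.50, 14.24 and 14.71 in Cl19 and 13.32, 12.13 and 12.62 in 3c3 (1.79 ± 0.63, adjusted p = 0.0381) and did not pass without 3c3 replicate 2, 3c3 replicate 3, Cl19 replicate 1, Cl19 replicate 2 or Cl19 replicate 3 (adjusted p = 0.0584 to 0.137). The arrays of the clones did not overlap for either gene. Cited4, a transcriptional co-activator, spread over 6.48 to 9.24 in 3c3 and did not pass (1.36 ± 0.61, adjusted p = 0.109), although it did without 3c3 replicate 3 (1.96, adjusted p = 0.0283). Foxc2, a forkhead factor of vessels, overlapped at 6.47, 6.86 and 6.48 in Cl19 and 6.15, 6.58 and 6.81 in 3c3 (0.09 ± 0.18, adjusted p = 0.785). Zeb1, a repressor of epithelial genes, was low in both, at 3.03, 3.02 and 2.96 in Cl19 and 3.42, 3.21 and 4.22 in 3c3 (-0.61 ± 0.25, adjusted p = 0.0688), and passed without 3c3 replicate 2 (-0.82, adjusted p = 0.0281). Of the 18 tested genes that the study names, 7 were higher in Cl19 and 3 lower (median 0.46), 55.6% beside 35.3% of all genes. The 7 came down to 3 without 3c3 replicate 2 or without Cl19 replicate 1, and to 4 without Cl19 replicate 3 or without the slide of 3c3 replicate 3. The study chose these genes on the same samples, so they are no independent evidence of a direction.

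The pluripotency and primitive endoderm genes that differed on d6 were mostly lower in Cl19 than in 3c3. Pou5f1 (Oct4) lay at 6.82, 7.49 and 7.97 in 3c3 and 0.53, 2.005 and 0.85 in Cl19 (-6.30 ± 0.74, adjusted p = 2.82e-06), above background on 1 of 3 Cl19 arrays. Its change from d0 was -9.15 in Cl19 and -4.11 in 3c3, so that all 3 d6 arrays of 3c3 still held it and Cl19 was close to background. Dnmt3l, a cofactor of de novo DNA methylation, lay at 13.68, 14.44 and 14.16 in 3c3 and 11.26, 11.03 and 11.96 in Cl19 (-2.68 ± 0.33, adjusted p = 4.42e-06), and Klf2, a zinc finger factor, at 7.86, 8.92 and 8.42 in 3c3 and 6.65, 6.35 and 5.98 in Cl19 (-2.07 ± 0.37, adjusted p = 0.000274). Sox2 was the exception and lay higher in Cl19, at 8.44, 7.28 and 6.56 in Cl19 and 4.98, 4.01 and 4.64 in 3c3 (2.88 ± 0.69, adjusted p = 0.0034). Of 12 tested pluripotency genes 6 were lower in Cl19 and 1 higher (median -1.10), Klf4, Klf5 and Myc being the other three that were lower (-1.74, -1.14 and -1.06). In this list 58.3% differed, beside 35.3% of all genes.

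Of 29 tested genes of the primitive and visceral endoderm, 14 were lower in Cl19 and 2 higher (median -1.04), and with any 1 of the 6 arrays or the slide of 3c3 replicate 3 left out 12 to 15 were lower. The share that differed was 55.2%, beside 35.3% of all genes. The transcription factors Gata6, Gata4, Sox17 and Sox7 were lower together. Gata6 lay at 12.06, 12.07 and 12.01 in 3c3 and 9.67, 9.42 and 10.67 in Cl19 (-2.13 ± 0.28, adjusted p = 9.64e-06) and Gata4 at 12.81, 13.08 and 13.22 in 3c3 and 11.26, 10.60 and 11.42 in Cl19 (-1.94 ± 0.30, adjusted p = 6.15e-05), with d0 levels of 13.2 to 13.6 in both clones (13.23 to 13.61). Sox17 and Sox7 differed by -2.38 ± 0.32 (adjusted p = 1.4e-05) and -1.80 ± 0.25 (adjusted p = 1.77e-05). 1 of the 3 further Gata6 probes did not pass. The plasma proteins that this layer secretes were split. Spp2, a secreted phosphoprotein, lay at 11.33, 12.46 and 12.13 in 3c3 and 7.89, 8.74 and 9.14 in Cl19 (-3.39 ± 0.62, adjusted p = 0.000325), and the fibrinogen chains Fga and Fgb differed by -3.34 ± 0.42 (adjusted p = 6.12e-06) and -3.34 ± 0.37 (adjusted p = 1.4e-06). Spp2 was above background in neither clone on d0. Apoa1, the main protein of HDL, differed by -2.95 ± 0.49 (adjusted p = 0.000131) in the same direction, whereas Apob, described above, and Rbp4, the retinol carrier of plasma, were higher in Cl19 (Rbp4 2.99 ± 0.53, adjusted p = 0.000206). Cubn and Amn, which form the receptor for uptake by this layer, and Dab2, its endocytic adaptor, were lower in Cl19 (differences of -2.30, -2.07 and -1.22). Apoe was among the brightest genes in both clones (16.86 in Cl19 and 17.27 in 3c3, difference -0.41).

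Most ligands of the TGFβ superfamily and their antagonists that differed were higher in Cl19. Of 29 tested genes of TGFβ, BMP and PDGF signalling 10 were higher in Cl19 and 4 lower (median 0.15), beside 17.8% higher and 17.5% lower of all genes, so that the share of lower genes was not above that of all genes. With the 6 d6 arrays alone in the fit 1 was lower. Lefty2, a secreted inhibitor of Nodal, was bright in both, at 15.63, 15.39 and 16.48 in Cl19 and 13.26, 11.06 and 11.93 in 3c3 (3.75 ± 1.23, adjusted p = 0.0259), and did not pass without 3c3 replicate 2, 3c3 replicate 3, Cl19 replicate 1 or Cl19 replicate 3 (adjusted p = 0.0536 to 0.102). Noggin (Nog), a BMP antagonist, lay at 11.74, 11.16 and 10.31 in Cl19 and 8.01, 7.79 and 8.02 in 3c3 (3.13 ± 0.34, adjusted p = 1.21e-06). Pdgfb, which encodes the chain of the PDGF-BB given in the medium, lay at 5.75, 5.91 and 5.67 in Cl19 and was above background on 1 of 3 arrays of 3c3 (4.29 ± 0.55, adjusted p = 7.48e-06). Tgfb2 lay at 5.48, 5.66 and 4.84 in Cl19 and 3.28, 2.91 and 1.02 in 3c3 (2.92 ± 0.53, adjusted p = 0.000285), above background on 2 of 3 arrays of 3c3, and Tgfb1 did not pass (0.41 ± 0.25, adjusted p = 0.261). Nodal (2.03), Bmp2 (2.65), Bmp7 (2.40), Pdgfa (1.27) and Ltbp1, which stores latent TGFβ in the matrix (2.75), were higher in Cl19 as well, while Inhba, a chain of activin, was lower (-2.31 ± 0.74, adjusted p = 0.0236). Among receptors, Tgfbr3, Tgfbr2 and the endothelial co-receptor Eng were lower in Cl19 (-2.67, -0.61 and -1.03), Acvr2b was higher (1.51), and Tgfbr1 and Pdgfra did not pass (0.94 and -0.06). Pdgfrb was above background in neither clone on d6.

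Genes known to respond to TGFβ went both ways. Of 19 tested, 9 were higher in Cl19 and 5 lower, and without 1 array the number of higher genes came down to 5 (3c3 replicate 2 or 3) or 4 (Cl19 replicate 2), to 3 without the slide of 3c3 replicate 3, and to 4 with the 6 d6 arrays alone in the fit. With all arrays 73.7% differed, beside 35.3% of all genes. Tgfbi, a matrix protein named for its induction by TGFβ, lay at 10.64, 12.39 and 10.54 in Cl19 and 4.33, 3.49 and 3.78 in 3c3, above background on 2 of 3 arrays of 3c3 (7.33 ± 0.85, adjusted p = 2.42e-06). Cdkn2b, the CDK inhibitor p15, lay at 13.59, 13.73 and 13.09 in Cl19 and 11.22, 9.69 and 10.07 in 3c3 (3.15 ± 0.85, adjusted p = 0.00764). Its d0 level was 3.51 in Cl19 and 3.08 in 3c3, so it rose in both clones and was higher in Cl19. Pmepa1 was higher in Cl19 by 2.03. Id4, an inhibitor of helix-loop-helix factors, lay at 10.80, 10.59 and 10.95 in 3c3 and 6.95, 6.88 and 6.39 in Cl19 (-4.04 ± 0.55, adjusted p = 1.32e-05), and Bambi, a decoy receptor of the TGFβ family, at 13.01, 13.80 and 13.55 in 3c3 and 11.27, 11.04 and 11.37 in Cl19 (-2.23 ± 0.40, adjusted p = 0.000248). Id2 and Smad6, which BMP signals induce, were lower in Cl19 too (-1.59 and -1.15).

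Epithelial genes were expressed by both clones and 13 of 32 tested were higher in Cl19, 2 lower (median 0.71). The share that differed was 46.9%, beside 35.3% of all genes. Krt7, a keratin of simple epithelia, lay at 15.45, 16.01 and 15.59 in Cl19 and 13.29, 11.03 and 12.17 in 3c3 (3.52 ± 1.14, adjusted p = 0.0246), and did not pass without 3c3 replicate 2, 3c3 replicate 3, Cl19 replicate 2 or Cl19 replicate 3 (adjusted p = 0.0527 to 0.107). Grhl2, a factor that maintains epithelial junctions, lay at 9.53, 9.88 and 9.93 in Cl19 and 6.35, 4.83 and 4.91 in 3c3 (4.42 ± 1.16, adjusted p = 0.00626). Ovol1, a repressor of mesenchymal genes, and Cldn1, a claudin of tight junctions, were above background in Cl19 alone, at least 2.21-fold and at least 2.28-fold higher. Both passed on the values as fitted (adjusted p = 1.09e-05 and 1.24e-06) and neither did with dim values set to the floor behind these bounds (adjusted p = 0.121 and 0.0921). Cldn3 (2.77), Pkp2 (1.61), Prss8 (1.43) and Krt8 (1.05) were higher too, while Krt19 was lower (-2.54 ± 0.36, adjusted p = 1.99e-05). Cdh1, the adhesion protein of epithelia, had 13.58 in Cl19 and 13.49 in 3c3 and did not pass (0.09 ± 0.29, adjusted p = 0.876). Of 17 mesenchymal genes tested, 5 were higher in Cl19 and 1 lower (median -0.04), and the 35.3% that differed were the same share as among all genes. Fibronectin (Fn1) lay at 13.36, 15.30 and 14.33 in Cl19 and 12.22, 12.48 and 12.28 in 3c3 (2.003 ± 0.46, adjusted p = 0.00252), Ncam1 at 6.07, 6.32 and 5.96 in Cl19 against background levels on 2 of 3 arrays of 3c3 (3.78 ± 0.58, adjusted p = 5.09e-05), and Twist1 and Twist2 differed by 1.70 and 1.95, while Snai1 was lower (-1.78). The number of lower genes was 0 without 3c3 replicate 3 and 2 without 3c3 replicate 2 or Cl19 replicate 2. A further Fn1 probe did not pass.

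The matrix genes went both ways. Of 31 tested, 12 were higher in Cl19 and 9 lower, beside 17.8% and 17.5% of all genes, with a median of 0.35. The sign of that median rested on dim probes. Over the 18 genes above background on all 6 d6 arrays, 5 were higher and 9 lower, with a median of -0.74. With dim values set to the floor the median was -0.57. Chains of the basement membrane were lower in Cl19, with Lama1 as above, Lamb1 (-1.78), Lamc1 (-1.79), Col4a1 (-1.95 ± 0.19, adjusted p = 3.73e-07), Col4a2 (-2.25) and Col18a1 (-3.31 ± 0.29, adjusted p = 8.18e-08), and with Lama5 (2.23) and Nid1 (1.77) as exceptions. Most interstitial genes that differed were higher in Cl19, led by Loxl1 and Lum, while Bgn, a small proteoglycan, and Sparc, a collagen-binding protein, were lower (-2.54 and -1.34). Col1a1, the main chain of type I collagen, lay at 13.00, 13.75 and 13.04 in Cl19 and 10.78, 8.33 and 9.49 in 3c3 (3.73 ± 0.58, adjusted p = 6.05e-05), in both clones below the primary SMC level of 15.99. Tnc, the matrix protein tenascin C, was above background in Cl19 alone, at 3.43, 6.58 and 6.98 and at least 7.16-fold higher (adjusted p = 3.5e-05). Col5a2 and Dcn were also above background in Cl19 alone, Col5a2 at 2.87, 6.16 and 4.59 (on the values as fitted, adjusted p = 1.12e-05) and Dcn at 3.30, 3.21 and 2.39. The bound for Dcn was 1.1-fold, and its difference passed on the values as fitted (adjusted p = 8.9e-07) but not with dim values set to the floor (adjusted p = 0.86). The grouping into these types was made after the values were seen.

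Genes of motile cilia, which beat through dynein arms on axonemal microtubules, were higher in Cl19 in 7 of 10 tested and lower in 1 (median 2.08), with 6 or 7 higher without any 1 array. The share that differed was 80.0%, beside 35.3% of all genes. Over the 5 genes above background on all 6 d6 arrays, 3 were higher and 1 lower. By the t-test of the study's methods 3 were higher, and by limma's treat at a minimum of 1 log2 unit 2 were. After normexp correction the median was 0.58. Of 20 listed genes 18 were analysed and 8 of these were too dim to be tested. Foxj1, the master factor of ciliogenesis, lay at 13.99, 13.55 and 13.01 in Cl19 and 11.08, 8.59 and 10.14 in 3c3 (3.58 ± 0.85, adjusted p = 0.0031), against d0 levels of 4.69 and 3.51. Ccno, needed for multiciliated cells, lay at 6.80, 6.68 and 6.35 in Cl19 and 4.16, 3.54 and 4.41 in 3c3 (2.57 ± 0.74, adjusted p = 0.0118), and did not pass without 3c3 replicate 2 (adjusted p = 0.0515). Dnali1 and Dnai1, of dynein arms, and Tekt1 and Tekt2, of axonemal filaments, were higher by 3.13, 2.41, 1.94 and 2.22, each at mean levels under 7 in Cl19. Tppp3, a tubulin-polymerizing protein, was higher in 3c3, at 11.95, 12.41 and 12.27 in 3c3 and 8.88, 10.42 and 9.09 in Cl19 (-2.75 ± 0.36, adjusted p = 8.87e-06).

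Of 28 tested genes of Wnt and FGF signalling 15 were higher in Cl19 and 2 lower (median 1.03), and 9 were higher with the 6 d6 arrays alone in the fit. With all arrays 60.7% differed, beside 35.3% of all genes. Wnt5b, a ligand, lay at 11.74, 12.52 and 11.13 in Cl19 and 8.72, 6.20 and 6.82 in 3c3 (4.55 ± 0.65, adjusted p = 2.21e-05). Several secreted Wnt inhibitors were higher in Cl19, with Sfrp5 at 14.25, 13.20 and 14.96 in Cl19 and 11.62, 9.93 and 11.32 in 3c3 (3.18 ± 0.84, adjusted p = 0.00671), Dkk1 at a difference of 2.36, and Frzb at 7.03, 6.38 and 7.66 in Cl19 and 5.79, 2.57 and 4.05 in 3c3 (2.88 ± 0.87, adjusted p = 0.0166). Frzb did not pass without 3c3 replicate 2 or Cl19 replicate 3 (adjusted p = 0.0656 to 0.11), and Sfrp5 had differed on d0 already (7.84 and 3.06). Lef1, a nuclear effector of Wnt, was above background in Cl19 alone and near it, at 3.53, 3.06 and 3.76, at least 1.54-fold higher. It passed on the values as fitted (adjusted p = 6.34e-06) and not with dim values set to the floor behind that bound (adjusted p = 0.362). The receptors Fgfr1 and Fgfr4 were lower in Cl19 (-1.52 and -2.52).

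Of the CDK inhibitors and D cyclins, 4 inhibitors were higher in Cl19 and 2 of the D cyclins lower, of 10 genes tested (60.0%, beside 35.3% of all genes). Ccnd1, which drives entry into S phase, lay at 9.93, 11.50 and 11.02 in 3c3 and 7.12, 8.61 and 8.11 in Cl19 (-2.87 ± 0.35, adjusted p = 3.73e-06), although on d0 it was higher in Cl19 (11.55 and 9.95, adjusted p = 0.0114). Cdkn2a, which encodes p16 and p19ARF, lay at 13.67, 14.24 and 13.78 in Cl19 and 11.70, 10.05 and 10.81 in 3c3 (3.04 ± 0.86, adjusted p = 0.0108) and did not pass without 3c3 replicate 2 (adjusted p = 0.0552). Cdkn1c, the CDK inhibitor p57, lay at 13.13, 13.71 and 12.22 in Cl19 and 10.35, 9.51 and 10.23 in 3c3 (2.99 ± 0.60, adjusted p = 0.000721) and also differed on d0, at 14.56 and 9.25 (adjusted p = 5.52e-05). The 4 higher genes, Cdkn1a and Cdkn2b being the other two, came down to 2 without 3c3 replicate 2 and to 1 without the slide of 3c3 replicate 3. The number of lower genes was 1 without 3c3 replicate 1 or Cl19 replicate 1, 3 without 3c3 replicate 2 and 4 without Cl19 replicate 3. Proliferation genes differed little, with 2 of 17 tested lower in Cl19, Rrm2 (-2.06 ± 0.47, adjusted p = 0.00228) and Mcm2 (-0.87), and none higher (1 without 3c3 replicate 1 or Cl19 replicate 2). The share that differed was 11.8%, beside 35.3% of all genes. For Rrm2 the arrays of Cl19 were 7.60, 7.33 and 9.92, of which replicate 3 overlapped 3c3, and without that array 9 of the 17 were lower in Cl19.

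Imprinted genes had 4 of 16 tested higher in Cl19 and 3 lower, led by Nnat, a proteolipid of neonatal brain, at 10.62, 10.79 and 11.08 in Cl19 and 4.66, 4.25 and 4.49 in 3c3 (6.36 ± 0.83, adjusted p = 8.56e-06), and the 4 came down to 2 without 3c3 replicate 3, Cl19 replicate 2 or 3, or the slide of 3c3 replicate 3, and the 3 to 1 without 3c3 replicate 2. Stress and immediate early genes had 3 of 16 higher and 2 lower, and Mt1, a metallothionein, had the largest difference of those that passed (1.91 ± 0.40, adjusted p = 0.00108). Without 3c3 replicate 2, Cl19 replicate 2 or the slide of 3c3 replicate 3, 1 was higher, and with 1 array left out 0 to 4 were lower, none without 3c3 replicate 2 and 4 without Cl19 replicate 1 or 2. Hox genes had 3 of 18 tested higher and 2 lower. Hoxa10 lay at 4.70, 3.55 and 5.52 in Cl19 and 3.39, 1.29 and 0.25 in 3c3 (2.94 ± 0.999, adjusted p = 0.0315), above background on 1 of 3 arrays of 3c3, and did not pass without 3c3 replicate 2, 3c3 replicate 3, Cl19 replicate 1 or Cl19 replicate 3 (adjusted p = 0.0763 to 0.154) or with dim values set to the floor (adjusted p = 0.159). Hoxa4 was above background on 2 of 3 arrays of 3c3 and on none of Cl19, so its difference toward 3c3 (adjusted p = 1.08e-05) has no size. With any 1 of 3c3 replicates 2 or 3 or Cl19 replicates 1 or 2 left out, at most 1 Hox gene was higher, and without 3c3 replicate 1 or Cl19 replicate 2, 1 was lower. Among 12 housekeeping genes 1 differed, Hprt1 (11.95 in Cl19 and 13.78 in 3c3, -1.83 ± 0.17, adjusted p = 1.16e-07), and the others lay between -0.72 and 0.41. Beside 35.3% of all genes, 43.8% of the imprinted, 31.2% of the stress and immediate early, 27.8% of the Hox and 8.33% of the housekeeping genes differed. The plot of gene lists shows every tested member.

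**Figure D5:**
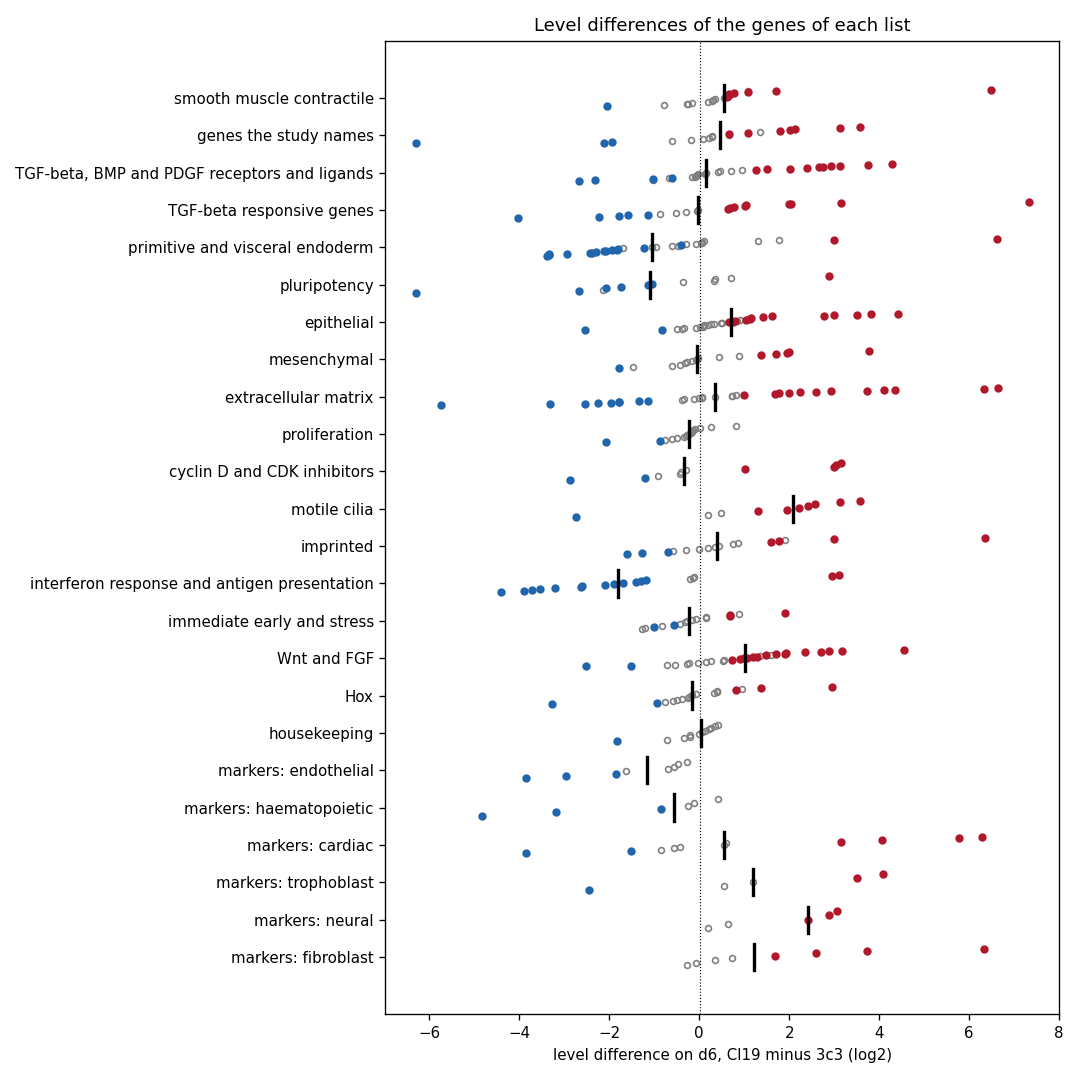
Level difference on d6, Cl19 minus 3c3 in log2 units, of each tested gene of 24 gene lists, with filled points for genes with an adjusted p under 0.05 (red higher, blue lower in Cl19), open points for the others, a bar at the median of each list and a dotted line at the median of all genes, 0.02. Interferon genes lie mostly to the left, with a median of -1.80, and motile cilia genes mostly to the right, with a median of 2.08.

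The markers of other cell types ranged from genes not above background in a clone to bright ones such as Krt7 and Actc1. In these bulk samples fewer cells of a type and less RNA per cell cannot be told apart. Over the 6 marker lists 37.5% to 60.0% of the tested genes differed, beside 35.3% of all genes (17.8% higher and 17.5% lower in Cl19). The lists hold 5 to 11 tested genes each, so each share rests on few genes. Of 8 tested endothelial markers 3 were lower in Cl19 and none higher. The endothelial share that differed, 37.5%, was close to that of all genes. Tek, the angiopoietin receptor, was above background in 3c3 alone, at 3.99, 4.81 and 4.70 (at least 5.92-fold, adjusted p = 7.02e-08), and Tie1 lay at 5.99, 6.59 and 6.46 in 3c3 and 3.98, 2.60 and 3.55 in Cl19 (-2.97 ± 0.34, adjusted p = 2.07e-06), while the defining genes Pecam1 and Cdh5 did not pass (-1.63 and -0.27) and were above background on 2 of 3 arrays of each clone. The summed intensity of the 8 was 349 to 544 in Cl19 and 1328 to 1796 in 3c3. Of 6 haematopoietic markers 3 were lower in Cl19. Csf1r, the receptor of macrophage growth factor, lay at 9.18, 10.81 and 10.52 in 3c3 and 5.84, 5.17 and 4.999 in Cl19 (-4.84 ± 0.56, adjusted p = 2.42e-06), and Gata1, a factor of red cell precursors, at 6.50, 6.49 and 6.97 in 3c3 and 3.76, 3.27 and 3.41 in Cl19 (-3.18 ± 0.46, adjusted p = 2.93e-05). The defining leukocyte gene Ptprc was above background on 1 Cl19 array and no 3c3 array, and the summed intensity of the 6 tested markers was 214 to 282 in Cl19 and 891 to 2208 in 3c3. Of 11 cardiac markers 4 were higher in Cl19 and 2 lower (1 without 3c3 replicate 1 or Cl19 replicate 1), and their summed intensity overlapped, at 20970 to 56460 in Cl19 and 18750 to 26300 in 3c3. Beside Actc1, Tnni1, the slow troponin I of embryonic heart, lay at 13.31, 14.37 and 12.07 in Cl19 and 7.61, 7.15 and 7.64 in 3c3 (5.78 ± 0.62, adjusted p = 8.71e-07), Tnnt2 differed by 3.16, and Nkx2-5, an early cardiac factor, lay at 7.68, 6.84 and 7.95 in Cl19 and 5.50, 2.95 and 1.83 in 3c3 (4.06 ± 1.28, adjusted p = 0.0205) but did not pass without 3c3 replicate 2, 3c3 replicate 3, Cl19 replicate 1 or Cl19 replicate 3 (adjusted p = 0.0559 to 0.104). Mybpc3, a protein of heart thick filaments, was higher in 3c3, at 13.50, 14.52 and 14.23 in 3c3 and 10.55, 10.36 and 9.76 in Cl19 (-3.86 ± 0.47, adjusted p = 4.29e-06).

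Fibroblast markers were higher in Cl19 in 4 of 8 tested, Col1a1, Col1a2, Dcn and Lum (3 with dim values set to the floor, where Dcn did not pass), and their summed intensity was 9606 to 15330 in Cl19 and 1556 to 3405 in 3c3. Pdgfra, another of them, did not differ past the test. Neural markers were higher in 3 of 5, Sox2, Tubb3 (2.42 ± 0.59, adjusted p = 0.00369) and Pax6 (above background in Cl19 alone, at least 1.97-fold, adjusted p = 1.87e-05). Pax6 did not pass with dim values set to the floor (adjusted p = 0.174) or after normexp correction (adjusted p = 0.0907), which leaves 2 of the 5 higher. Their summed intensity overlapped, at 20260 to 26580 in Cl19 and 15610 to 23640 in 3c3. Trophoblast markers had 2 of 5 higher in Cl19, Krt7 and Gata3 (at least 4.48-fold, adjusted p = 1.38e-06), and 1 lower, Cdx2, at 7.05, 6.19 and 6.12 in 3c3 and 3.66, 4.03 and 4.35 in Cl19 (-2.44 ± 0.35, adjusted p = 2.16e-05). The 2 came down to 1 without 3c3 replicate 2 or 3, Cl19 replicate 2 or 3, or the slide of 3c3 replicate 3. The summed intensity of the 5 was 45600 to 67680 in Cl19 and 2440 to 10690 in 3c3. The part of other cell types in the differences above was not tested.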

How the data were processed

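Rat 4x44K 1-colour arrays were scanned and read with Agilent Feature Extraction 10.1.1.1, per the file headers. The deposited intensity values (gProcessedSignal) were background-corrected by that software, and the authors' value table holds their log2 without normalization between arrays. Here the log2 values of 43379 gene features on 26 arrays were quantile-normalized as in the study's methods, outlier-flagged features were removed, and the features of a probe were averaged (41012 probes). The 24442 probes above background on all arrays of 1 or more of the 9 groups were tested in 1 limma fit (limma 3.58.1, R 4.3.3; Benjamini-Hochberg, 0.05), checked on simulated data. Values are log2 intensities with their SE. Summed intensities of a list add linear values. Symbols came from RefSeq accessions (16725 probes), from design names (3540) or synonyms (1068), and 19679 probes stayed unnamed. 

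Groups came from the labels. Named genes were the 10 largest differences a side among probes above background on all 6 arrays, with clones that did not overlap on d6. Added to these were the 6 largest lower bounds a side, up to 4 large differences a list and the genes the study names. Members and lists were chosen with earlier results of these data known, and further list members were named after their values were seen. Some genes counted in the lists are not reported here by name. The probe of a list gene is its brightest. Of 2851 genes with several tested probes, 5 had probes called in opposite directions. The number of arrays limits the precision. Alternatives covered scaling, background, filters, the t-test of the study's methods, slide, replicate number and arrays left out. That t-test is named in the study's general statistics and not for its arrays. For the arrays the study selected probes by the area between a time profile and the d0 level, which was not repeated here.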

Additional observations from a re-analysis of the deposited data

Results flagged for a closer look

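For 74 of the 104 probes of named genes, the clone difference on d6 was not the same as on d0, by the test of the difference itself (limma, adjusted p under 0.05, over the 24442 probes of which 17.4% passed). Apart from the genes the study names, these probes were chosen for a large d6 difference, which is part of the value tested. Their share is raised by that choice and is no result beside the 17.4%. The values below are the d6 difference minus the d0 difference, Cl19 minus 3c3, in log2 units, and for probes below background in a clone they rest on the values as fitted.

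Among leading genes higher in Cl19 the values were Bpifa1 7.81, Mrap2 7.27, Tst 6.84, Olfm1 6.37, Hpd 6.07, Has2 5.71, Loxl1 4.62, S100a16 2.95 and Apob 6.56 and (second probe) 6.07. Among leading genes higher in 3c3 they were Svs4 -8.22, Htra1 -6.57, Mfap5 -6.53, Cd52 -6.56, Nmnat3 -6.17 and (second probe) -5.54, Prg2 -6.14, Ribc2 -6.12, Lama1 -5.81, Hamp -5.44 and Upk3a -4.93. The genes above background in Cl19 alone gave Igfbp5 8.15, Ankrd22 7.17, Lum 6.52, Eps8l1 6.39 and Casr 6.14, and those in 3c3 alone gave Cav1 -6.58, Mep1b -6.43, Rnf125 -5.29, Zyg11a -5.02 and Mogat3 -4.57.

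Interferon and antigen presentation genes gave Psmb8 -6.13, Rsad2 -5.47, Tap2 -4.68 and Cd74 -3.24. Psmb8 and Rsad2 had been higher in Cl19 on d0 and were lower on d6. The same turn was seen in Ccnd1 -4.48 and Tppp3 -4.28. Synm gave 6.66 and Cnn1 0.89, although Cnn1 itself did not pass the test between the clones on d6 or on d0 (adjusted p = 0.322 and 0.1).

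Endoderm and pluripotency genes gave Pou5f1 -5.04, Gata6 -1.84, Gata4 -2.03, Spp2 -2.63, Fga -3.48 and Fgb -4.59. Genes of TGFβ signalling and response gave Tgfbi 6.53, Pdgfb 4.11, Nog 3.22, Tgfb2 2.52, Id4 -3.54 and Bambi -1.85, and genes of Wnt signalling Wnt5b 4.52, Frzb 3.61 and Lef1 2.70. Epithelial, mesenchymal and matrix genes gave Grhl2 5.02, Ovol1 3.65, Cldn1 3.17, Ncam1 3.88, Fn1 2.12, Tnc 4.42, Col1a1 3.74 and Dcn 2.62. Ciliary and imprinted genes gave Ccno 3.77, Dnali1 3.52 and Nnat 4.13. Among markers of other cell types the values were Csf1r -5.20, Tek -4.98, Gata1 -3.61, Tie1 -3.42, Cdx2 -1.66, Tnni1 3.90, Gata3 3.70, Tubb3 3.06 and Pax6 2.89.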

How the results depend on the processing

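The 7112 probes past the threshold were 1652 with limma's treat at a minimum of 1 log2 unit and 2707 with the methods' t-test. They were 4316 with normalization and fit over the 6 d6 arrays and 4374 with these 6 arrays alone in the fit. These 6 arrays are fewer samples for the spread, and the spread also differed between groups. The median SD was 0.31 in Cl19 and 0.32 in 3c3 on d6, and 0.18 and 0.23 on d0. It was 0.20 to 0.32 on d2 and d4 and 0.08 in primary SMC. What lowered the counts was not tested. The 1979 large differences were 1218 with the methods' t-test, 986 over probes above background on all 6 arrays, which are fewer probes, and 526 after normexp correction. Of the 986, 414 were higher in Cl19 and 572 higher in 3c3. The methods' t-test counts are after Benjamini-Hochberg, and 6955 probes had an unadjusted p under 0.05. With 1 d6 array left out, the counts ranged from 5866 to 7162 and from 1823 to 2237. The other alternatives gave 5528 to 8697 and 1439 to 1990.

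As a block, the replicate number gave 8697 probes past the threshold and 1987 large differences. The numbers do not pair the samples: deviations of same-numbered arrays correlated at 0.05, 0.51 and 0.14, and not every array was nearest to its own number.

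Among single genes the direction turned in 3 that had not passed, with the cause not tested. With 1 d6 array left out, Foxc2 ranged from -0.0905 (without 3c3 replicate 1) to 0.24 and was -0.0382 without Cl19 replicate 2, and Smarcd3 ranged from -0.0259 (without 3c3 replicate 2) to 0.52. Myocd was -0.76 with dim values set to the floor. In 83 of the comparisons of a named gene with an alternative other than leaving out a d6 array the call was lost in the same direction, and 1364 were unchanged in direction and call. The difference of all probes had a median of 0.01, and between -0.002 and 0.07 under the other scalings. Clone, donor age, slide and scan day cannot be told apart, and signals near background, highest on the slide of 3c3 replicate 3, limit what dim probes show.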

Other observations

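Gene families that share the start of their symbol were counted after their values were seen, as a description with no test, over families of at least 10 tested genes. Beside 17.8% of all tested genes higher and 17.5% lower in Cl19, 11 of 14 Ift genes, which carry cargo along cilia, were higher in Cl19 (median 1.13). Of 14 Cfap genes, named for cilia and flagella, 6 were higher and none lower, and of 11 Fgf ligands 5 were higher and none lower. Krt genes, the keratins, had 8 higher and 3 lower of 14. Rgs genes, which shorten signals of G proteins, had 7 higher and 1 lower of 14. In the other direction, 7 of 14 genes with the stem Pla, which holds the phospholipases A, were lower in Cl19 and none higher, and 6 of 10 Akr genes, the aldo-keto reductases, were lower (median -1.26) with 2 higher. Itga genes, the integrin alpha chains, had 5 lower and 2 higher of 10. Tspan genes, the tetraspanins, were split, with 6 higher and 7 lower of 15.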
